A study of Homo sapiens with 24 samples.

Results

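The comparison described here sets SNU398 cells given decitabine together with GSK-126 against SNU398 cells given DPBS. It rests on 4 of the series' 24 RNA-seq libraries, chosen by their labels alone: 2 of the combination and 2 of DPBS, each pair lettered A and B. SNU398 is an established line of human hepatocellular carcinoma, labelled wild type. The combination group received 5-Aza-CdR (decitabine) at 100 nM and GSK-126 at 500 nM daily for 3 days, the DPBS group received the buffer, and both were harvested on day 14. The series also holds SNU398 cells given either agent alone, and the same 4 treatments in HepG2 and SNU475, 2 libraries each. Those libraries entered the fit and are named only where a difference from them was tested. HepG2 was also harvested on day 14, and SNU475 on day 21. No label says whether A and B were separate cultures, so the p-values measure the spread between these libraries, which may be technical.

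Decitabine is a cytidine analogue that is built into replicating DNA and traps the maintenance methyltransferase DNMT1, so that CpG methylation is lost as cells divide. GSK-126 inhibits EZH2, the catalytic subunit of Polycomb repressive complex 2, which places the repressive H3K27 trimethyl mark. CpG methylation and H3K27 trimethylation both hold genes silent, often at different loci, and EZH2 activity has been found to keep some genes silent after DNA methylation is removed. Germline genes, retroviral long terminal repeats and silenced tumour suppressor genes are known to respond to methyltransferase inhibitors. Reads from transposable elements have been linked to an interferon response in such cells. The question set by the design was what both agents together do that DPBS and each agent alone do not.

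The 2 DPBS libraries held 60.37 and 56.5 and the 2 combination libraries 43.3 and 54.67 (each in units of 1000000 reads, recovered from the deposited values), with 62.7 to 63.6% of reads in genes. Library A correlated with library B at r = 0.9945 in the combination and 0.9951 in DPBS, across genes. SNU398 showed little of the liver programme at the start: 3 of 40 hepatocyte genes averaged at least 1 RPKM in DPBS. The summed level of that list was 14.6 and 8.3 RPKM in DPBS and 9.09 and 23.3 in the combination, which is 0.0596 to 0.167% of the mean in HepG2. The same share of the highest HepG2 level would amount to 0.722 RPKM for DHRS2 and 0.269 or less for the other 14 genes with the highest changes named below. Immune-cell markers summed to 1.31 to 1.36 RPKM in DPBS and 1.47 to 1.67 in the combination, with 7 of 24 listed at 0 in all 4 libraries. Endothelial markers summed to 1.49 to 1.65 and 2.54 to 2.78 RPKM, and their part in the results was not tested. A bulk level cannot tell fewer cells with an RNA from less of that RNA per cell.

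The response was broad in number and small in size, with the large changes almost all upward. Of 19377 genes tested, 5592 (28.9%) were higher and 3573 (18.4%) lower with the combination at an adjusted p below 0.05 (limma, Benjamini-Hochberg). The median change was 0.32 on the log2 scale among the genes called higher and -0.27 among those called lower. A change of at least 2-fold was reached upward by 309 genes (1.59%) and downward by 17 (0.0877%). All 309 and all 17 had groups that did not overlap, which was not particular to them. The same held for 5589 of the 5592 genes called higher and 3571 of the 3573 called lower. The share over all tested genes was not counted, and non-overlap is no evidence beyond the call. The counts past 2-fold depended on the pseudocount, with 869 and 79 at 0.1 and 158 and 8 at 1, and the 17 became 76 without DPBS library A, 33 without DPBS library B and 32 without combination library A. Levels are RPKM, reads per kilobase of gene and scaled to library size, adjusted between libraries. Changes are differences of log2(RPKM + 0.5), which understates the change of low genes. On this scale a gene below 0.5 RPKM in DPBS cannot fall 2-fold, even if lost entirely. The excess of 309 over 17 is therefore in part set by the scale. With quantile normalization in place of the scaling, 4473 genes were higher and 4625 lower, so 49.2% of calls were upward in place of 61.0%.

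Large rises came mostly from genes at low level. Of the 309 genes, 26 were listed at 0 in both DPBS libraries, and 73 of the 2010 genes between 0 and 0.1 RPKM rose at least 2-fold (3.63%). Only 17 of the 4205 genes between 5 and 20 RPKM did so (0.404%), and none of the 171 above 100 RPKM. A gene below 0.1 RPKM in DPBS passed the filter only through other libraries, which can be the combination pair. The rates of rise at the low end are therefore in part set by the filter. Levels were also cut on the DPBS values that enter the change. Without the filter 302 of 43609 tested genes rose at least 2-fold, but their rates by level were not counted. Between 5 and 20 RPKM 9 genes fell at least 2-fold (0.214%). The calls of lower level lay at the other end, low genes having little room to fall on this scale. Of the 171 highly expressed genes 108 fell (63.2%), and of the 1150 between 20 and 100 RPKM 610 fell (53%). The X chromosome held 26 of the 309, which is 4.04% of its 643 tested genes, and 15 of the 26 were cancer-testis antigens. Genes that rose at least 2-fold also lay near each other, 57 of 309 (18.4%) having another within 100 kb, against 5.76% of the remaining tested genes. Overlapping genes and close copies counted as neighbours, and what shared reads add to this was not tested. By class, 244 of the 309 were protein-coding and 30 long non-coding, out of 13741 and 2750 tested.

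**Figure D1:**
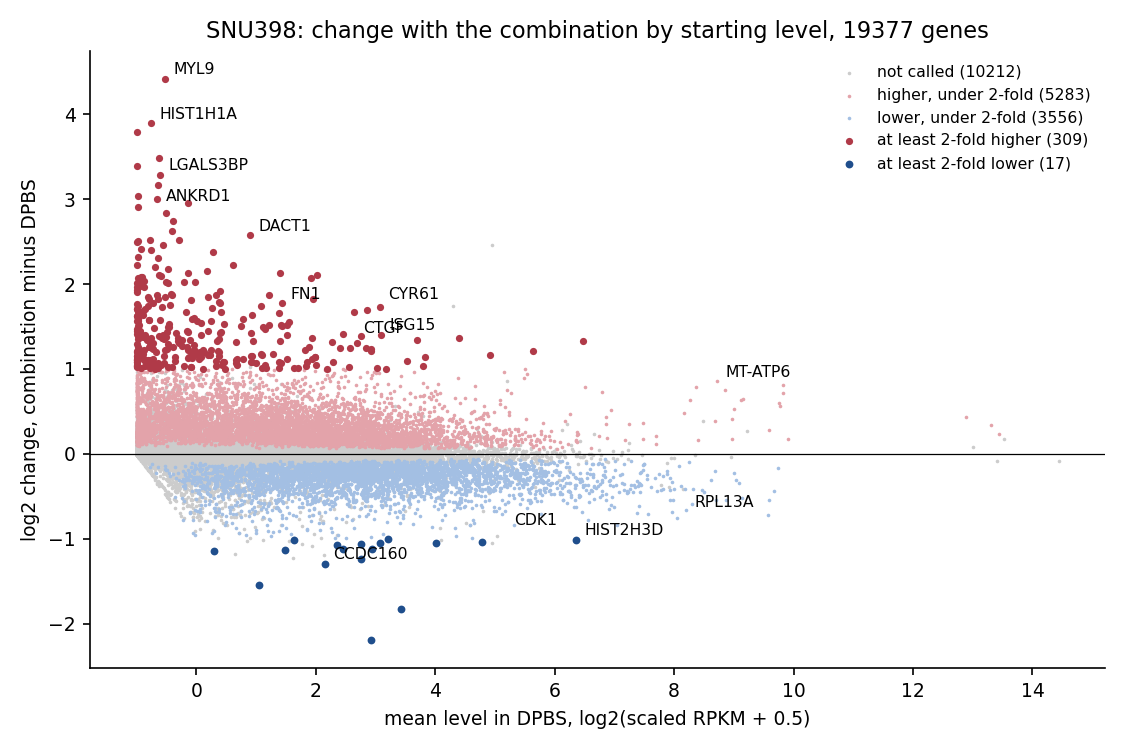
Log2 change of each of the 19377 tested genes (combination minus DPBS, y axis) against its mean level in the 2 DPBS libraries (x axis, log2 of scaled RPKM + 0.5), coloured by call. The 309 large rises crowd at the low end of the x axis, while the highly expressed genes on the right lie mostly below 0. Those on the right that rose include mitochondrial mRNAs such as MT-ATP6.

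The mRNAs of the drug targets moved little. EZH2 (ENSG00000106462, chr7:148504475-148581413, hg19) was at 14.7 and 15.3 RPKM in DPBS and 13 and 12.8 in the combination, a change of -0.21 ± 0.0343 (SE) on the log2 scale (adjusted p = 0.00012). Its Polycomb partners SUZ12 and EED, which EZH2 needs for activity, each had a log2 change of -0.21. DNMT1, the target of decitabine, went from 16.5 and 16.5 to 15.2 and 15 RPKM (log2 -0.13). UHRF1, which brings DNMT1 to hemimethylated DNA, fell by 0.22 on the log2 scale. Of the de novo methyltransferases, DNMT3B rose by 0.20 and DNMT3A had a log2 change of -0.09, a call that was lost under 5 of the alternative analyses. EED lost its call under 3 alternatives, and EZH2, SUZ12, DNMT1, DNMT3B and UHRF1 kept theirs under all that were run. Among 14 writers, readers and erasers of DNA methylation 5 rose and 4 fell, with TET1, a demethylating dioxygenase, lowest at -0.55. Of 21 Polycomb subunits and H3K27 demethylases 10 rose and 8 fell, with JARID2 highest (5.81 and 5.73 to 9.34 and 9.37 RPKM).

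MYL9, the regulatory light chain of smooth muscle myosin (ENSG00000101335, chr20:35169887-35178228), had the highest change. It was at 0.239 and 0.153 RPKM in DPBS and 13.4 and 15.3 in the combination, 4.42 ± 0.231 higher on the log2 scale (adjusted p = 1.3e-09). HIST1H1A, a linker histone H1 gene (chr6:26017260-26018040), went from 0.11 and 0.0786 to 8.48 and 8.18 RPKM. A second linker histone, HIST1H1D (chr6:26234440-26235216), was listed at 0 in both DPBS libraries and at 4.88 and 4.57 RPKM in the combination. The paired libraries of each group lay close together beside gaps of this size.

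LGALS3BP, a secreted galectin-3-binding glycoprotein that interferon induces, stood at 0.176 and 0.141 RPKM in DPBS and 5.8 and 6.07 in the combination. ANKRD1, a cardiac ankyrin repeat protein and a well-known YAP target, moved from 0.138 and 0.139 to 5.13 and 5.38 RPKM. LDHB, the heart-type subunit of lactate dehydrogenase, was at 0 and 0.0155 RPKM and then at 3.87 and 3.49. All 3 were nearly silent in DPBS and none of their groups came close to overlapping. Groups that do not overlap were a condition for naming these genes.

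FRG2C (log2 3.0) belongs to a family of near-identical copies, so reads may be split among them. Several of the other genes of this set are enzymes. NQO1, a quinone reductase, rose from 0.486 and 0.329 to 6.29 and 6.77 RPKM. GSTP1, a glutathione transferase often silenced by methylation in tumours, rose from 0.232 and 0.182 to 4.34 and 4.76 RPKM. The retinaldehyde reductase DHRS3 and the mitochondrial reductase DHRS2 rose by 2.74 and 2.62 on the log2 scale. DHRS2 had the widest error of the 15 (SE 0.393). DACT1, an antagonist of Wnt signalling, started higher than the rest, at 1.4 and 1.32 RPKM, and reached 10.7 and 10.5. The cancer-testis genes PAGE2B, PAGE5 and MAGEC2 make up the remainder.

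The falls were shallower. CCDC160, a coiled-coil protein gene on X (chrX:133371077-133380237), went from 4.42 and 3.49 to 1.29 and 1.33 RPKM (log2 -1.29 ± 0.073, adjusted p = 2.4e-09). UNC13A, which primes synaptic vesicles, went from 2.3 and 2.31 to 0.767 and 0.794 RPKM. PIK3C2G and PRKACB, a class II phosphoinositide kinase and a catalytic subunit of protein kinase A, had log2 changes of -1.02 and -1.01. Of the histone genes among the 10, HIST2H3D was at 82.6 and 80.2 RPKM in DPBS and 43.8 and 36.6 in the combination, while HIST1H4K and HIST1H4I changed by -1.04 and -0.96. HGF, hepatocyte growth factor, had 3.8 and 3.59 RPKM in DPBS and 1.74 and 1.76 in the combination. The secreted glycoprotein gene STC2 and the kinase gene MATK completed the 10 at -0.99 and -0.94.

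**Figure D2:**
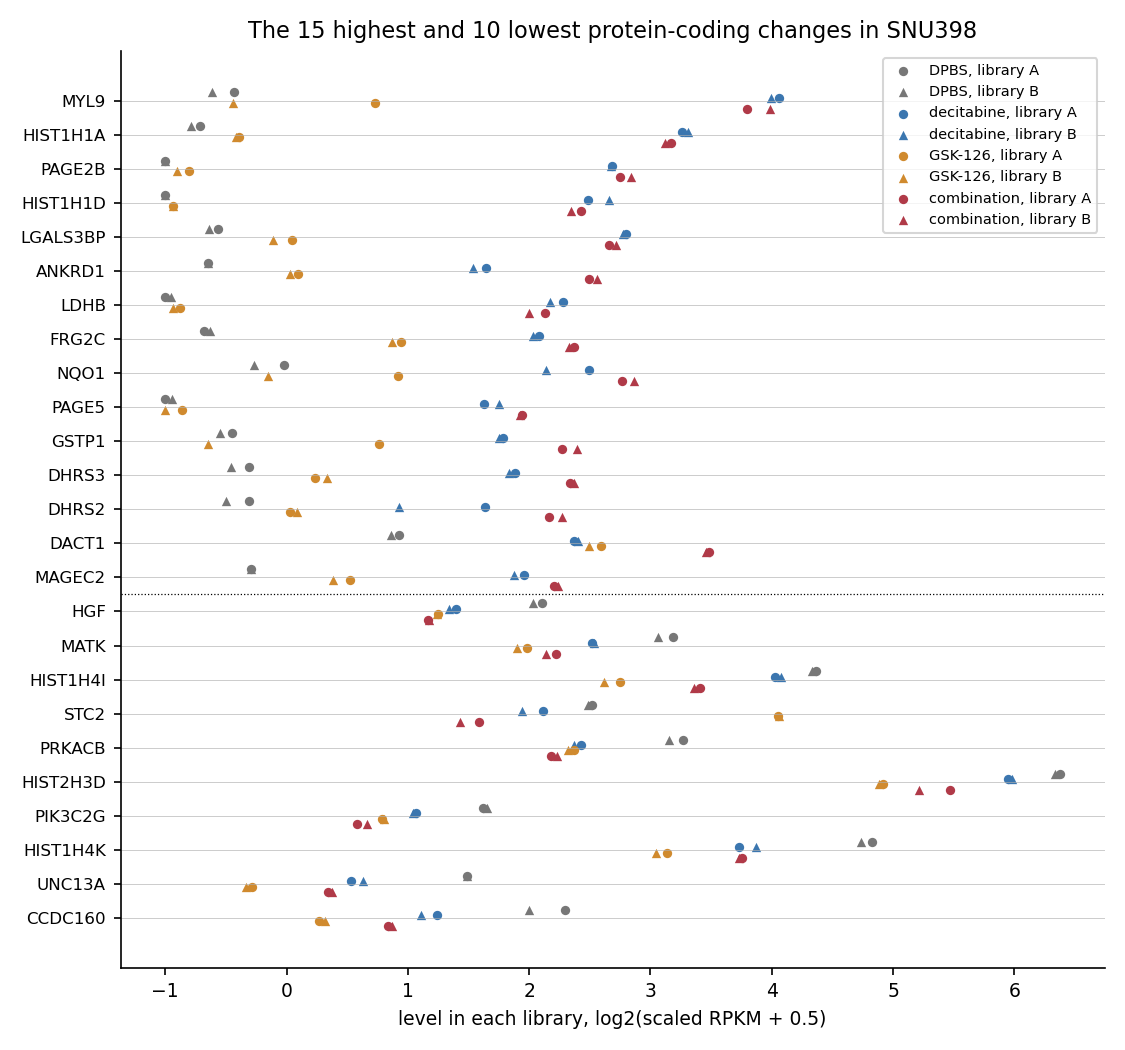
Level of the 15 protein-coding genes with the highest changes (above the dotted line) and the 10 with the lowest (below it) in each of the 8 SNU398 libraries (x axis, log2 of scaled RPKM + 0.5; circles, library A; triangles, library B). Combination points lie apart from DPBS points in every row, which the choice of these genes required. For most of the 15 the combination points sit near those of decitabine.

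Among long non-coding RNAs the lowest change was also the lowest of all 2-fold falls except that of the short MIR3143 (log2 -2.19), named after its value was seen. RP11-475A13.1 (chr15:36731173-36763217) went from 10.3 and 10.2 to 2.47 and 2.61 RPKM, a change of -1.83 ± 0.0376. DAOA-AS1 changed by -1.12. The highest were RP11-474O21.5 (log2 2.11), RP11-497G19.1 (2.01), CTC-338M12.9 (1.83) and CTD-2256P15.1 (1.82). In RP11-474O21.5 the combination libraries differed from each other, at 3.01 and 1.74 RPKM, against 0.166 and 0.133 in DPBS. DAOA-AS1 is an antisense gene, and the strand setting of the counting is not given in the sources used here.

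Cancer-testis antigens are genes normally confined to male germ cells, most of them on X and held silent elsewhere by CpG methylation. Of 70 in the list 40 could be tested, and 27 rose, 15 of them at least 2-fold, while 2 fell. The median change was 0.62, or 0.75 with the 9 genes listed at 0 in DPBS set at their lower bound (3 reads a library), against 0.03 over all genes. PAGE2B was listed at 0 in both DPBS libraries and reached 6.23 and 6.65 RPKM. PAGE5 went from 0 and 0.0207 to 3.34 and 3.3 RPKM, PAGE2 from 0.0217 and 0 to 2.34 and 1.77, and MAGEC2 from 0.317 and 0.314 to 4.11 and 4.22. PAGE2 and PAGE2B are close copies of each other, so reads can be split between them. The list did not move as 1 block: CT83 fell, from 0.865 and 0.921 to 0.26 and 0.296 RPKM, and so did GAGE1 by 0.24 (both named after their values were seen). Since the filter kept genes that were on in some library, the 40 are not a neutral sample of the 70. Without the filter 65 were tested, 28 rose and 2 fell, and the median was 0.17.

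The promoters of PAGE2B and PAGE5 are shown because both genes went from silent to expressed, and their CpG sites are where methylation could lie. Each line gives the 250 bases before the transcription start from RefSeq (GRCh38.p14, not the hg19 build of the files), 5′ to 3′, with each CpG in capitals. PAGE2B lies at chrX:55074780-55075029 and PAGE5 at chrX:55220096-55220345, both on the plus strand, with 11 and 9 CpG sites. HIST1H1A, at chr6:26017788-26018037 on the minus strand, has 15.
PAGE2B: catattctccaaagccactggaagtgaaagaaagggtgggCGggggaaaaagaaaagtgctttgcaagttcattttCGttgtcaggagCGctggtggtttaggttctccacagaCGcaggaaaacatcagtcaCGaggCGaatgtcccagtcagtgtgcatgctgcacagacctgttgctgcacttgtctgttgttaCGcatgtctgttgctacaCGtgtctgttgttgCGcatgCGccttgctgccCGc
PAGE5: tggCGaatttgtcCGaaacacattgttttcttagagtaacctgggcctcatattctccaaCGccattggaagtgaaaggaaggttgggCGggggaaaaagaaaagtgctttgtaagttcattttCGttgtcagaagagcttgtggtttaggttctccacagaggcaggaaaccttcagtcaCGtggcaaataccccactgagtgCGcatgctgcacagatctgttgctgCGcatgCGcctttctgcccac
HIST1H1A: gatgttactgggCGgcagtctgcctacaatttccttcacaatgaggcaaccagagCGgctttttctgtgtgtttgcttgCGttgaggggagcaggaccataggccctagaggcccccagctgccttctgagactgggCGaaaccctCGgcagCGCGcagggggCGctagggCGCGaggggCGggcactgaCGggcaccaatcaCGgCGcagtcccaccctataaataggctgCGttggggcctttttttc

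The median number of CpG sites in these 250 bases over 27305 RefSeq promoters is 11. In the longer window of 250 bases before to 50 after the start, the 35 cancer-testis genes with a promoter in the table had a median of 12 CpG sites, against 26 for 11135 tested protein-coding genes. No methylation was measured in these libraries.

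Genes of the piRNA pathway and of meiosis, which guard and recombine the germline genome, rose in 16 of 26 tested and fell in 7 (median 0.59, or 0.66 at the lower bound). The list holds 52 genes, and the filter kept those that were on in some library. Without the filter all 52 were tested, 29 rose and 8 fell, and the median was 0.18. DAZL, an RNA-binding protein of germ cells, was listed at 0 in DPBS and stood at 1.87 and 1.8 RPKM in the combination. MAEL, a piRNA factor, went likewise from 0 to 1.16 and 1.11 RPKM, and the Tudor protein gene TDRD1 from 0.0026 and 0.00259 to 1.36 and 1.41. TUBA3D, a testis tubulin, reached 1.38 and 1.7 RPKM. The 7 falls became 3 with a pseudocount of 0.1 or without combination library A. They included the meiotic recombinase DMC1, at 3.41 and 3.46 RPKM in DPBS and 2 and 2.03 in the combination (named after its values were seen).

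Interferon-stimulated genes rose in number but mostly by little. Of 61 tested, 43 rose and 2 fell, with a median of 0.26 and 8 of them at least 2-fold higher. Under quantile normalization 33 rose and 2 fell, with a median of 0.15. ISG15, a ubiquitin-like modifier, went from 8.18 and 7.96 to 21.5 and 22.9 RPKM (log2 1.41 ± 0.0502, adjusted p = 1.8e-11). IFITM3 and IFITM2, membrane proteins that block viral entry, went from 0.224 and 0.136 to 3.02 and 3.43 RPKM and from 0.219 and 0.234 to 1.73 and 1.48. Of 28 sensors and signalling factors 19 rose and 2 fell (6 under quantile normalization). Among them IRF7, the transcription factor that amplifies interferon output, moved from 0.0052 and 0.0294 to 1.53 and 1.73 RPKM. The cytosolic RNA sensor DDX58 rose by 0.65 and the receptor-associated kinase gene JAK1 by 0.70.

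The upstream sequences of LGALS3BP and ISG15 are shown with a motif in capitals: GAAA, any 2 bases, then GAAA again. This is a core of the interferon-stimulated response element, searched on both strands, and adjoining matches may overlap. Such a match is present in 3.07% of the 27305 RefSeq promoters over the same 250 bases. LGALS3BP lies at chr17:78979924-78980173 on the minus strand with 1 match, and ISG15 at chr1:1013247-1013496 on the plus strand with 2 overlapping matches (GRCh38.p14). The PAGE2B and PAGE5 promoters printed above also hold a match, so a match alone does not mark an interferon gene. By list the shares were far apart, in the longer window used above for the CpG medians. There a match was present for 33 of 48 interferon-stimulated genes with a promoter sequence (68.8%). The same held for 3 of 35 cancer-testis genes (8.57%) and for 2.81% of the 11135 tested protein-coding genes. The difference between these shares was not tested.
LGALS3BP: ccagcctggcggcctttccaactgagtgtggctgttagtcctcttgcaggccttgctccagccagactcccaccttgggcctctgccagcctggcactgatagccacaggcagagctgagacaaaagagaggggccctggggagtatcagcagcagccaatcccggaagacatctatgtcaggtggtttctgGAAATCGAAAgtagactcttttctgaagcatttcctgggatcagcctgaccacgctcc
ISG15: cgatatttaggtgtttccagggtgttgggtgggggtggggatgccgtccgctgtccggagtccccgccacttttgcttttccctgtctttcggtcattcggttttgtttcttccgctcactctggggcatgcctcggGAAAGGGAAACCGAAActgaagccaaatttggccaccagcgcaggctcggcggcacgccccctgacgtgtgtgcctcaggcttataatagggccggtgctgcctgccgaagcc

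Antigen presentation by MHC class I rose in 19 of 22 genes and fell in none (median 0.37). HLA-C went from 16.3 and 15.9 to 27.9 and 29.9 RPKM, and TAP1, a subunit of the peptide transporter, from 2.73 and 2.8 to 5.33 and 5.48. HLA genes are polymorphic and alike in sequence, so single-gene values are uncertain. Of 8 MHC class II genes tested 3 rose, HLA-DMA with the highest change (0.84). Among 28 chemokines and inflammatory cytokines 12 rose and none fell. TGFB2 and TGFB1, growth factors of 1 family, rose by 0.90 and 0.48. The chemokine gene CCL2 went from 0.013 and 0.0138 to 0.824 and 0.884 RPKM (named after its values were seen).

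Tumour suppressor genes often methylated in liver cancer rose in 28 of 38 tested, 9 of them at least 2-fold, and fell in 2 (median 0.41). Besides GSTP1, the Wnt antagonist SFRP4 rose from 0.216 and 0.221 to 2.41 and 2.4 RPKM. TFPI2, a protease inhibitor, rose from 1.96 and 1.69 to 7.73 and 8.35 RPKM, and THBS1, thrombospondin, from 1.65 and 1.59 to 6.75 and 6.4. The cyclin-dependent kinase inhibitors split: of 8 tested 3 rose and 2 fell. CDKN1A (p21) went from 1.47 and 1.41 to 4.11 and 4.67 RPKM and CDKN2B (p15) from 3.62 and 3.33 to 7.37 and 7.3, whereas CDKN1B (p27) went from 13.9 and 12.6 to 8.77 and 9.66. Of 30 p53 targets 13 rose and 6 fell, with the Polo-like kinase PLK2 highest (2.17).

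Matrix and mesenchymal genes rose in 20 of 29 tested and fell in 4, with 7 at least 2-fold higher (median 0.52). COL1A1, a fibrillar collagen chain, went from 0.667 and 0.609 to 4.54 and 4.62 RPKM, SPARC from 0.113 and 0.101 to 1.47 and 1.71, and FN1 (fibronectin) from 2.27 and 2.13 to 8.48 and 9.07. The summed level of the list barely differed, 826 to 849 RPKM in DPBS and 856 to 857 in the combination, although 20 members rose. Epithelial genes rose in 12 of 29 and fell in 2, with CDH3 (P-cadherin) highest at 1.15. Of 31 contractile and muscle genes 16 rose and 2 fell, ACTA2 (smooth muscle actin) by 1.01. Metalloproteases and their inhibitors rose in 11 of 17, none falling, among them the collagenase MMP1 (0.729 and 0.707 to 6.03 and 5.67 RPKM) and the inhibitor TIMP1 (0.819 and 0.802 to 4.35 and 4.55). S100 calcium-binding genes rose in 6 of 12, S100A11 most (2.02).

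YAP target genes, which respond to the Hippo pathway and to cell spreading, rose in 18 of 22 and fell in 2, with a median of 0.65. CYR61 went from 7.74 and 8.1 to 28 and 26.7 RPKM and CTGF from a mean of 5.76 to 19.5, both matricellular proteins. Early-response transcription factors rose in 17 of 20 with 1 fall (median 0.62). Among them were FOS (3.41 and 3.31 to 13.1 and 13.1 RPKM) and JUN (1.85 and 1.81 to 6.32 and 6.08). In CYR61, CTGF, FOS and JUN alike the treated libraries lay far above both DPBS libraries.

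HOX genes are classic Polycomb targets. Of 34 tested 21 rose and 5 fell, with a median of 0.30. The median change from DPBS was 0.43 under decitabine alone and 0.24 under GSK-126 alone. Set directly against decitabine, 3 of the 34 were higher in the combination and 7 lower. HOXB5 went from 0.809 and 0.816 to 3.78 and 4.2 RPKM, and HOXA5 from 3.29 and 2.68 to 6.55 and 6.24. The 5 that fell were HOXC6, HOXC8, HOXC9, HOXC10 and HOXD13, with changes between -0.52 and -0.33 (named after their values were seen). Other developmental transcription factors rose in 41 of 80 and fell in 10 (5 with a pseudocount of 0.1), with a median of 0.17, led by the homeobox genes MSX2 (1.66) and MSX1 (1.55).

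Genes of growth and protein synthesis fell. Of 83 cytoplasmic ribosomal protein genes 76 fell and 2 rose, with a median of -0.37. RPL13A went from 287 and 301 to 184 and 186 RPKM and RPL39 from 40.5 and 44.2 to 31.4 and 25. The 2 that rose were RPL10L, a testis paralogue, and RPL39L, at 0.0139 and 0.0432 RPKM in DPBS and 0.365 and 0.26 in the combination (the latter named after its values were seen). Genes of DNA replication and mitosis fell in 33 of 46 and rose in 3 (median -0.23). CDK1 went from 36.3 and 35.0 to 23.6 and 23.3 RPKM, and cyclin A2 (CCNA2) from 37.1 and 36.6 to 24.8 and 24.8. Replication-dependent histone genes fell in 49 of 71 and rose in 10, with a median of -0.42 but a range from -1.04 to 3.89. The 10 that rose include HIST1H1T, the testis linker histone (3.13 and 3.44 to 14.9 and 15.9 RPKM), and HIST1H3J (0.956 and 1.13 to 6.75 and 6.59). Histone genes of 1 class are near-identical, which can move reads between copies. Most such mRNAs lack a poly(A) tail, and these libraries were made from total RNA.

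Messenger RNAs encoded by mitochondrial DNA went the other way, with 12 of 13 rising and none falling (median 0.60). MT-ATP6 was at 422 and 423 RPKM in DPBS and 753 and 786 in the combination, and MT-ND1 at 881 and 929 and then 1565 and 1596. Under quantile normalization 9 rose and 1 fell. Cholesterol synthesis genes fell in 14 of 24 and rose in 2, MSMO1, a sterol oxidase, most (-0.56). Of 32 genes of the integrated stress and unfolded-protein responses 17 fell and 12 rose. The transcription factor CEBPB went from 20.3 and 19.1 to 9.58 and 11.6 RPKM and the glutathione-degrading enzyme CHAC1 from a mean of 10.1 to 5.52, while ATF5 rose by 1.30.

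Hepatocyte genes gave 4 rises and 1 fall among 34 tested, the fall being that of the pioneer factor FOXA1 (5.31 and 5.47 to 3.94 and 4.25 RPKM). The rises were those of FOXA3 (log2 0.48), CPS1 (0.25), PROX1 (0.19) and ASS1 (0.18), named after their values were seen. Under quantile normalization 1 rose and 2 fell. Oncofetal and progenitor markers gave 6 rises and 2 falls among 18, with SALL4, a stem-cell factor, up by 0.95 and GPC3, a glypican used as a liver tumour marker, down by 0.60. The call of GPC3 was lost with a pseudocount of 0.1 (adjusted p = 0.076). Imprinted genes gave 16 rises and 2 falls among 28, clustered protocadherins 14 and 2 among 23 (5 and 3 under quantile normalization), methionine cycle genes 2 and 8 among 17, metallothioneins 5 and 1 among 7, and abundant small RNAs 4 and 2 among 12. The falling methionine genes included AMD1, which makes the decarboxylated form of S-adenosylmethionine (20.1 and 19.3 to 14.1 and 13.9 RPKM). Of 9 immune-cell markers tested NCAM1 rose and PTPRC fell, and of 5 endothelial markers 2 rose, none of these reaching 2-fold. The call of NCAM1 was lost under quantile normalization (adjusted p = 0.24) and with only the 4 compared libraries in the fit (0.075). Over all genes 28.9% rose and 18.4% fell. Over the protein-coding genes, which make up most of these lists, 36.2% rose and 22.4% fell. The share of risen members among p53 targets, epithelial genes and chemokines was not far above the latter.

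**Figure D3:**
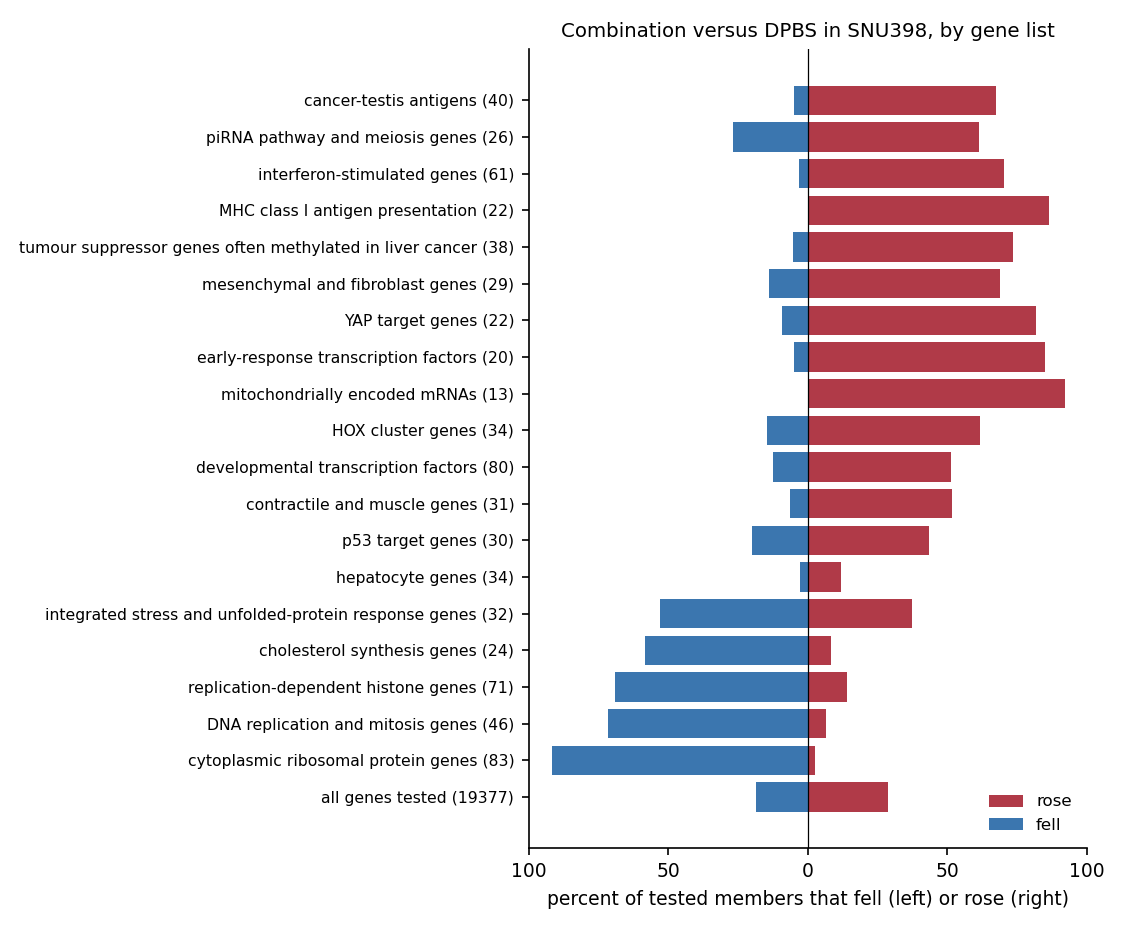
Percent of the tested members of 19 gene lists, and of all 19377 genes, that rose (red, right) or fell (blue, left) at an adjusted p below 0.05, with the number tested in brackets. Ribosomal protein genes (76 of 83 fell) and mitochondrially encoded mRNAs (12 of 13 rose) mark the extremes.

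The combination was then set directly against decitabine alone. The 2 decitabine libraries were uneven in hepatocyte RNA. That list summed to 72.4 RPKM in library A and 8.55 in library B, or 0.52 and 0.0615% of the HepG2 mean. What this adds to the contrasts with decitabine was not tested. Here 2413 genes (12.5%) were higher and 1563 (8.07%) lower, but just 14 (0.0723%) and 8 (0.0413%) by 2-fold or more. Of the 15 genes with the highest changes 8 did not pass this test: MYL9 differed from decitabine by -0.14 (adjusted p = 0.78), PAGE2B by 0.12 (0.45) and LGALS3BP by -0.10 (0.13), for example, each on the log2 scale. ANKRD1 did, with 2.51 RPKM on average under decitabine and 5.26 under the combination (0.94, adjusted p = 7.2e-09). Of the 14 genes at least 2-fold above decitabine 8 were protein-coding, and these are named here after their values were seen. KITLG, the ligand of the receptor KIT, stood at 0.815 and 0.789 RPKM in DPBS, 1.39 and 1.27 under decitabine, 1.06 and 0.999 under GSK-126, and 4.06 and 3.97 under the combination. DACT1 stood at 4.67 and 4.8 under decitabine and 5.52 and 5.12 under GSK-126, and PLK2 at 1.06 and 1.04 and at 0.692 and 0.505. MT2A, a metallothionein, stood at 5.85 and 6.5 RPKM under decitabine and 5.47 and 5.19 under GSK-126, against 16.5 and 16.3 in DPBS and 15.1 and 15.2 in the combination. It was thus low under each agent alone and near DPBS under both together. SMR3B stood at a mean of 0.715 RPKM under decitabine, 0.56 under GSK-126 and 1.96 under the combination. SPP1 and PI15 were above decitabine but near GSK-126 alone, at 2.03 and 1.96 RPKM for SPP1 and 3.44 and 3.65 for PI15 under the combination and GSK-126. AC009041.2, of 39 bases, held 2 to 5 reads in the DPBS and combination libraries and did not pass the test against DPBS (adjusted p = 0.46), and the remaining 6 were small RNA genes.

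By list, YAP targets exceeded decitabine in 18 of 22 genes with none below, tumour suppressor genes in 17 of 38 with none below, and mesenchymal genes in 14 of 29 with 1 below. CTGF, for instance, was at 11.4 RPKM on average under decitabine, 11.1 under GSK-126 and 19.5 under the combination. Developmental transcription factors were above decitabine in 27 of 80 and below in 6, and early-response factors in 10 of 20 with none below. Cancer-testis antigens were above in 6 of 40 with none below, and piRNA and meiosis genes in 1 of 26 with 1 below. Interferon-stimulated genes leaned the other way, 2 of 61 above and 12 below decitabine. ISG15 averaged 33.5 RPKM under decitabine and 22.2 under the combination (log2 -0.58, adjusted p = 2.7e-06), and DDX58 2.64 and 2.02. Histone genes were below decitabine in 20 of 71 and above in 3.

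Against GSK-126 alone 5157 genes (26.6%) were higher and 4544 (23.5%) lower. Several lists that GSK-126 alone moved by a median of over 0.6 stood elsewhere in the combination. Integrated stress response genes had a median change from DPBS of 1.20 under GSK-126 and -0.16 under the combination, and 24 of 32 were lower in the combination than under GSK-126, with 7 higher. CEBPB averaged 54.9 RPKM under GSK-126 and 10.6 under the combination, CHAC1 33.8 and 5.52. Replication and mitosis genes had medians of -0.81 and -0.23, and 42 of 46 were higher in the combination than under GSK-126. Mitochondrially encoded mRNAs had medians of -0.65 and 0.60, all 13 being higher in the combination. DNMT3B averaged 2.76 RPKM under GSK-126, 7.23 under the combination and 6.22 in DPBS. MMP1 and FOS were both higher under GSK-126, at 29.5 and 51.0 RPKM, than under the combination, at 5.85 and 13.1. These medians share the same DPBS libraries, while the counts compare the treated libraries directly.

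**Figure D4:**
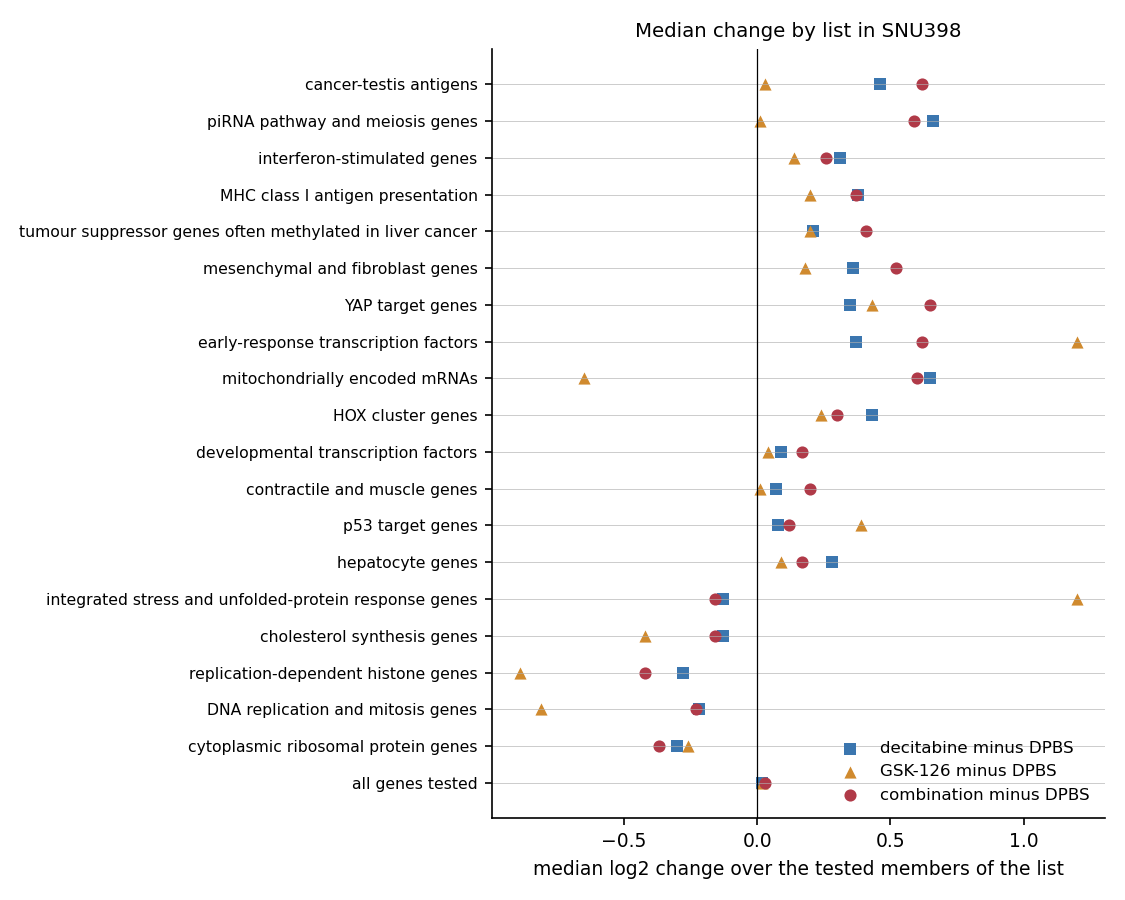
Median log2 change from DPBS over the tested members of the same lists under decitabine (squares), GSK-126 (triangles) and the combination (circles), all against the same 2 DPBS libraries. Circles lie near squares in most rows, and the stress-response, early-response, mitochondrial, histone and mitosis rows show the GSK-126 triangles far from both.

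A test of whether the combination departs from the sum of both single-agent changes on the log2 scale, added after the data were seen, called 3575 genes (18.4%) above the sum and 4426 (22.8%) below. KITLG exceeded the sum by 1.07 ± 0.109 (adjusted p = 1.5e-06), PLK2 by 0.47 and SMR3B by 0.48. DACT1 fell short of it by 0.56 ± 0.0801 although the combination was higher than either agent alone. ANKRD1 stood 0.22 ± 0.0564 above the sum and CTGF at -0.14 ± 0.062 from it. The large GSK-126 values enter this contrast with a negative sign: FOS stood at -3.52, MMP1 at -3.89 and CEBPB at -1.82 from the sum, and MT2A at 2.77.

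Repeat-derived RNA made up 3.14% of reads in each DPBS library and 3.58 and 3.65% in the combination, or 0.43 to 0.45% and 0.53 to 0.54% outside gene bodies. Of 843 subfamilies tested 415 (49.2%) rose and 29 (3.44%) fell, and the median subfamily was 0.22 higher on the log2 scale. The 29 became 15 without combination library A and 19 without DPBS library A or combination library B. Outside gene bodies 279 of 585 rose and 12 fell, with a median of 0.25. The rise was thus general and shallow.

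HERV9 and its long terminal repeat LTR12 led. LTR12 elements are primate promoters with known activity in testis and after inhibition of DNA methylation or histone deacetylation. HERV9-int, the internal part, was at 9.78 and 10.4 RPM (reads per 1000000 reads) in DPBS and 39.3 and 39.3 in the combination (log2 1.91 ± 0.0673, adjusted p = 1.5e-21). LTR12D went from 7.82 and 7.38 to 27.6 and 27.2 RPM and LTR12 from 6.3 and 6.8 to 15.5 and 17.1. LTR12C, the most abundant, went from 122 and 122 to 225 and 221. Of 7 LTR12 subfamilies 6 rose, LTR12B being the exception at 0.27 (adjusted p = 0.052), and 6 of 7 also rose outside genes. The sizes were smaller there: HERV9-int changed by 1.06, LTR12D by 1.31 and LTR12 by 0.36, while LTR12C changed by 0.73 against 0.87 over all loci.

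Of the other leading subfamilies, the pericentromeric satellite HSATII went from 0.53 and 0.124 to 2.1 and 1.72 RPM. HERV-Fc1-int, with 7 loci, went from 0.0183 and 0 to 0.854 and 0.989. MER63C changed by 1.18 over all loci but by -0.18 outside gene bodies (adjusted p = 0.28), so the rise was seen with the copies inside genes included and not without them. The lowest changes called were those of LTR14A (-0.57), LTR58 (-0.52), Helitron2Na_Mam (-0.50) and MamGypLTR2c (-0.47). The call of Helitron2Na_Mam was lost without DPBS library A (adjusted p = 0.11) and without combination library A (0.08), and that of LTR58 without combination library A (0.055). LTR14A, for instance, went from 3.3 and 3.36 to 2.12 and 2.05 RPM.

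LINE-1 is the autonomous retrotransposon family of the human genome, and L1HS is its youngest subfamily. All 9 young LINE-1 subfamilies tested rose over all loci, with a median of 0.52, and 8 of 9 rose outside gene bodies. The exception was L1PA5, which changed by 0.34 over all loci and by -0.13 outside genes (adjusted p = 0.072). L1HS went from 8.28 and 8.18 to 12 and 11.8 RPM, L1PA2 from 33.4 and 34.6 to 57.4 and 54.8, and L1PA7 from 153 and 155 to 229 and 223. The 9 also stood above decitabine alone, L1PA7 by 0.52 (adjusted p = 1.2e-11), where 321 of the 843 subfamilies (38.1%) were above and 7 (0.83%) below. Of the LTR12 group 4 of 7 were above decitabine, LTR12C by 0.29. Alu subfamilies rose in 24 of 34 (median 0.22), satellites in 8 of 12 (0.43), THE1 and MST elements in 12 of 21 (0.21), SVA elements in 4 of 6 (0.28), HERVK in 4 of 12 with 1 fall (0.11), HERVH in 2 of 5 with 1 fall (0.08), LTR10 in 2 of 8 (0.23) and MER41 in 2 of 7 (0.22). The Alu, THE1, LTR10 and MER41 medians are close to that of all subfamilies.

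**Figure D5:**
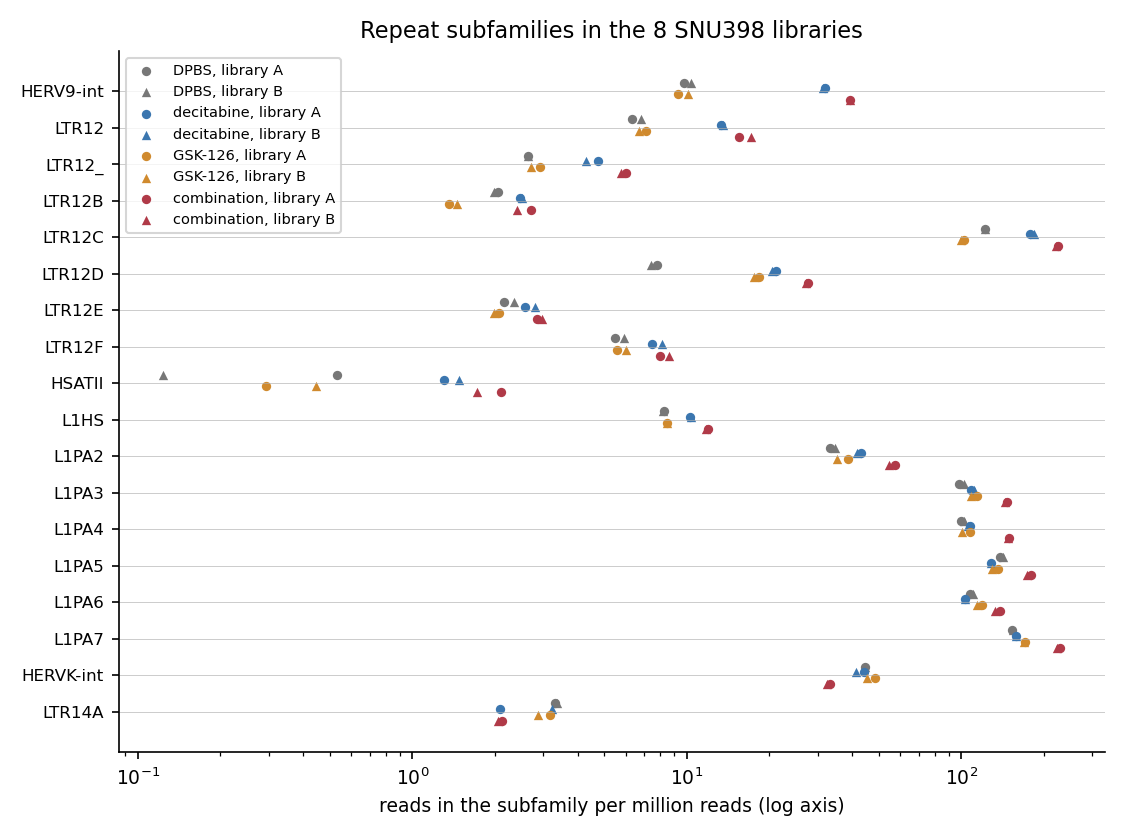
Level (RPM, log axis) of 18 repeat subfamilies in the 8 SNU398 libraries (circles, library A; triangles, library B; colours, treatment). HERV9-int and the LTR12, LTR12C and LTR12D rows step up from DPBS to decitabine and again to the combination, and in the L1HS and L1PA rows the combination points lie to the right of the other 3 groups.

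At the level of single loci outside gene bodies, 441 of 19549 tested (2.26%) were higher and 221 (1.13%) lower, and the first count became 242 without DPBS library B and 261 without DPBS library A. LTR12C supplied 26 of the 441, from 118 tested (22.0%), with log2 changes from 0.41 to 2.49. The highest of them, at chr13:24105519-24106996 (hg19, 37513 bases from the nearest tested gene, TNFRSF19), held 5 and 8 reads in DPBS and 170 and 228 in the combination. It ends just before an MLT1L fragment at chr13:24107134-24107254, which went from 0.274 and 0.293 to 5.34 and 5.59 RPKM. An LTR12C copy at chr1:154650331-154651788 went from 27 and 24 to 173 and 223 reads. Of the 26, 19 had a tested gene within 50 kb, which made 46 pairs of locus and gene, some genes being counted with more than 1 locus. In 19 of the 46 pairs the gene rose and in 2 it rose at least 2-fold, beside 28.9% and 1.59% of all tested genes.

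The remaining loci with the highest changes rest on few reads or on unequal libraries. An AluSx3 copy at chr2:232501178-232501484 held 2 and 2 reads in DPBS and 32 and 154 in the combination. A MER63B fragment at chr13:80931077-80931173 held 3 and 0 reads and then 21 and 20. A MER101 fragment of 18 bases at chr2:162160998-162161015 held 0 and 0 and then 2 and 4, which is too few to describe.

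The same combination was compared across lines by testing the difference of its effects. SNU398 minus HepG2 was positive for 5072 genes (26.2%) and negative for 6182 (31.9%), and SNU398 minus SNU475 was positive for 6543 (33.8%) and negative for 4403 (22.7%). Cancer-testis antigens had a median effect of 0.62 in SNU398, 1.86 in HepG2 and 0.45 in SNU475, and 27 of 40 had a lower effect in SNU398 than in HepG2 by this test. Replication and mitosis genes had medians of -0.23, -0.76 and 0.59, with 39 of 46 higher in SNU398 than in HepG2 and 41 lower than in SNU475. Ribosomal protein genes had medians of -0.37, -0.32 and 0.22. The SNU475 cells were harvested 7 days later, so line and time cannot be told apart in that contrast.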

How the data were processed

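RNA-seq libraries of total RNA depleted of ribosomal RNA were read from a single end, per the labels' protocols. Reads were aligned with HISAT2 to hg19 and assigned with featureCounts, per the submitters' processing notes; their versions and strand setting are not stated in the labels. The authors deposited RPKM values for 63677 genes and for single repeat loci, with the feature length as another column in bases. Whole reads were recovered from the RPKM steps and gave depth. RPKM was scaled by median-of-ratios factors over 8211 genes. Genes with at least 0.5 RPKM in at least 2 of the 24 libraries were tested with limma 3.58.1 (R 4.3.3; trend, robust) on log2(RPKM + 0.5), over 12 group means, 2-sided, with Benjamini-Hochberg adjustment. A call needs an adjusted p below 0.05. Reads of repeat loci were summed per subfamily as reads per 1000000 reads and kept at 1 or more in 2 libraries. Single loci outside genes were tested like genes, unscaled. The script was tested on simulated data.

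The text names the 15 highest and 10 lowest protein-coding changes, 4 and 2 long non-coding ones, up to 4 called members per list (each at 1 RPKM or more in the higher group, groups not overlapping for the first sets), and 6 and 4 subfamilies and 4 loci. Other repeats come from the lists. Comparisons, lists and members were chosen with earlier results of these data known, and the sum contrast was added after the data were seen. Alternatives varied the pseudocount, scaling, filter, libraries fitted, replicate block and model. Promoters came from RefSeq, GRCh38.p14. A few named genes are not reported here.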

Additional observations from a re-analysis of the deposited data

Results flagged for a closer look

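The effect of the combination was compared between lines for the 25 protein-coding genes with the highest and lowest changes, and 46 of the 50 differences passed the test (limma, adjusted p below 0.05). These genes were chosen for their change in SNU398, so a larger effect there is in part given by the choice. Values are the log2 effect in SNU398 minus that in the other line, and SNU475 was harvested later than SNU398.

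Among the genes that rose, LGALS3BP differed by 2.40 from HepG2 and 3.24 from SNU475, and FRG2C by 2.66 and 2.96. NQO1 differed by 2.94 and 2.86, DHRS3 by 2.67 and 2.76, DHRS2 by 2.14 and 2.91, and LDHB by 1.83 and 2.57. HIST1H1D differed by 3.80 and 2.41 and DACT1 by 2.45 and 1.71. ANKRD1, the YAP target, was closer across lines, at 0.29 and 0.31. MYL9 differed from SNU475 by 3.22, HIST1H1A by 1.87 and PAGE2B by 0.52. In 3 genes HepG2 had the larger rise: GSTP1 at -2.11 (2.49 against SNU475), MAGEC2 at -0.66 (2.39) and PAGE5 at -0.46.

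Among the genes that fell, CCDC160 differed by -1.32 from HepG2 and -1.29 from SNU475, UNC13A by -1.56 and -1.14, and PIK3C2G by -1.18 and -0.97. HGF differed by -0.90 and -1.0, MATK by -1.03 and -0.92, PRKACB by -0.72 and -1.06, and STC2 by -0.49 and -1.88. The histone genes went different ways: HIST1H4I differed by -3.43 and -1.49, whereas HIST2H3D differed by 0.98 and -2.34 and HIST1H4K by 0.97 and -1.78.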

How the results depend on the processing

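Calls by adjusted p alone moved by less than 1.5 times for genes under every alternative run, but counts past 2-fold followed the scale. Genes at least 2-fold higher numbered 869 with a pseudocount of 0.1, 158 with 1 and 1901 with voom on recovered reads, against 309. Those at least 2-fold lower numbered 79, 8 and 119 in the same order, 33 without scaling and 48 after quantile normalization, against 17. Leaving out 1 library gave 4742 to 5082 genes higher, 2997 to 3040 lower, 300 to 332 at least 2-fold higher and 23 to 76 at least 2-fold lower, the 76 without DPBS library A. For repeats it gave 314 to 352 subfamilies higher, 15 to 20 lower, 242 to 390 loci higher (242 without DPBS library B) and 144 to 198 lower. Outside gene bodies 12 subfamilies were lower, and the log2 change of MER63C was -0.18. A filter of 10 reads per 1000000 left 264 subfamilies higher. A pseudocount of 0.1 left 132 loci lower, and requiring 10 reads gave 397 loci higher and 207 lower. The alternatives on loci were chosen after seeing the data. Of 2461 values for 171 results, 2420 kept direction and call, 40 lost the call and 1 reversed. No label says what libraries of the same letter share. Deviations of the same-lettered combination and DPBS libraries correlated at r = -0.118 across genes. A single correlation between 2 groups cannot decide whether they shared a culture or day. With the letter as a replicate block 5540 genes were higher and 3574 lower (307 and 19 at 2-fold), 428 and 28 subfamilies, and 349 and 183 loci. With the letters of the combination libraries crossed, chosen after seeing the data, 5591 genes were higher and 3642 lower.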
